A study of Mus musculus with 37 samples.

Results

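The genes described here are 53 components of Wnt signalling among the 48795 genes counted in the hippocampal RNA-seq of Kdm1a-ifKO and control mice. They comprise 19 Wnt ligands, 12 Frizzled and Lrp receptors, 7 R-spondins and Lgr receptors, 9 secreted antagonists and 6 feedback targets of the pathway. Kdm1a-ifKO mice carry a floxed Kdm1a gene and a tamoxifen-regulated Camk2a-creERT2 recombinase, which is active in forebrain excitatory neurons and not in the other cells of the hippocampus. Controls were littermates that lacked the recombinase, and both groups were male and received tamoxifen, at 8 weeks of age. Each group consisted of 3 mice with 1 library per mouse of whole hippocampus, and the age at collection is not given in the sources used here. The list was drawn up with earlier results of this comparison known, so its members were in part selected on their differences between the genotypes. The calls and log2 fold changes (log2FC) of the members are therefore given as a description and support no statement about the pathway as a whole.

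Wnts are lipid-modified secreted proteins that bind Frizzled receptors together with the coreceptors Lrp5 or Lrp6. In the canonical branch this stops the degradation of beta-catenin, which then activates genes through Tcf and Lef factors, among them negative regulators of the pathway such as Axin2 and Znrf3. R-spondins bind Lgr receptors and remove the ubiquitin ligases Znrf3 and Rnf43 from the membrane, which keeps Frizzled receptors at the cell surface. Sfrp, Frzb and Wif1 proteins bind Wnts, and Dkk1 and Dkk2 bind Lrp coreceptors. In the hippocampus the pathway is known for its role in the formation of the hippocampal primordium next to the cortical hem, which produces Wnt3a, and for neurogenesis in the dentate gyrus.

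The libraries held between 18985542 and 19469947 counts. Kdm1a, the deleted gene, was measured at 79.5, 81.1 and 79.6 CPM (counts scaled to the total of the library) in the 3 controls and at 39.3, 36.9 and 38.4 CPM in the 3 Kdm1a-ifKOs, which was a log2FC of -1.07 ± 0.0559 (SE, adjusted p = 6.24e-08). The counts cover the whole gene and not only its floxed exons. Here and in the rest of the text, a gene is called when its adjusted p-value in edgeR's quasi-likelihood test over all 16799 tested genes is under 0.05. By that measure 1014 genes (6.04%) were higher and 473 genes (2.82%) were lower in Kdm1a-ifKOs, and 229 genes (1.36%) were higher with a log2FC over 1. Of the principal components of the libraries, the first (50.2% of the variance) separated the genotypes and the second (16.6%) set control 3 and Kdm1a-ifKO 2 apart from the other 4 libraries. The tissue was bulk hippocampus, so that fewer cells of a type and less RNA per cell cannot be told apart.

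Of the 53 members, 47 had enough counts to be tested. Among these, 19 were called higher in Kdm1a-ifKOs, beside the 6.04% of all tested genes, and 1 was called lower, beside 2.82%. A log2FC over 1 was reached by 7 of the 19, beside 1.36% of all tested genes. These 7 were the R-spondin gene Rspo1, its receptor gene Lgr6 and the ligand genes Wnt3a, Wnt1, Wnt10b, Wnt11 and Wnt2b. The median log2FC over the tested members was 0.35, against -0.00342 over all tested genes, and 39 of the 47 had a positive log2FC. In 26 of the 47, the lowest Kdm1a-ifKO exceeded the highest control, a pattern that 15.7% of all tested genes showed. Because the comparison itself contributed to the choice of the list, nothing is read from these shares.

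**Figure D1:**
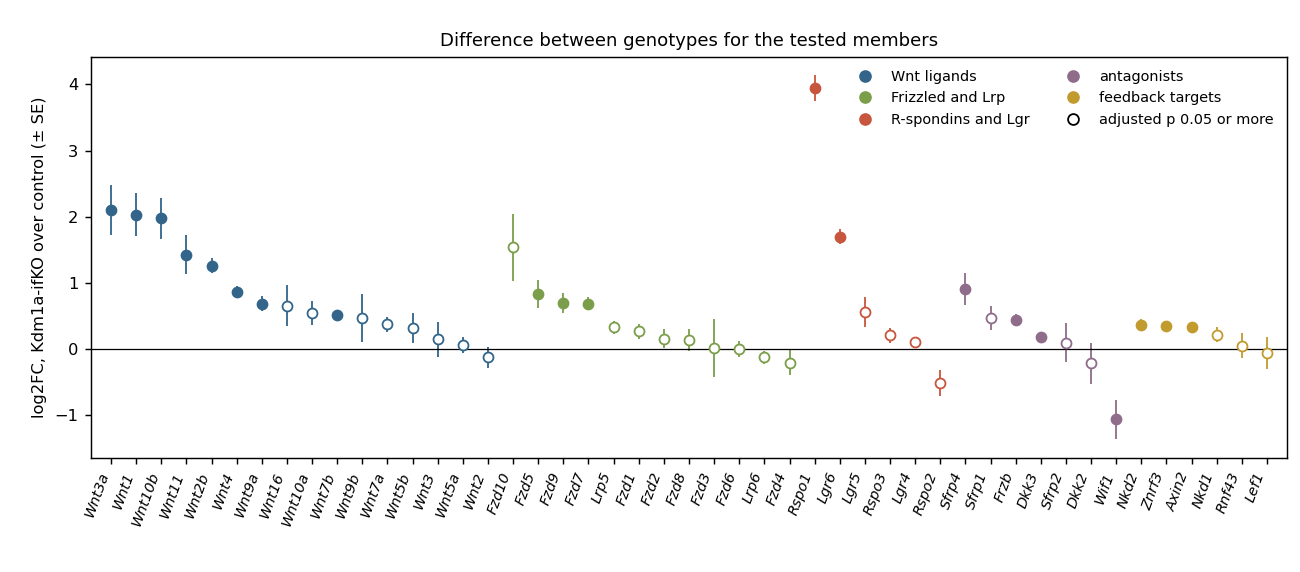
The vertical axis gives the log2FC between Kdm1a-ifKO and control for each of the 47 tested members, with bars of 1 SE, grouped and coloured by class. Filled points had an adjusted p under 0.05, Rspo1 stands highest at 3.94, and Wif1 lowest at -1.06.

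Rspo1 showed the widest separation of the groups. Rspo1 encodes a secreted activator that raises the sensitivity of a cell to Wnts without being a Wnt itself. Control mice yielded 13, 19 and 13 counts of Rspo1, and Kdm1a-ifKOs yielded 246, 201 and 270. These correspond to 0.68, 0.998 and 0.699 CPM in controls and 12.6, 10.2 and 13.9 CPM in Kdm1a-ifKOs, so that the lowest mutant stood far above the highest control. The log2FC was 3.94 ± 0.195 (SE, adjusted p = 3.77e-08), a ratio of 15.3. When single libraries were left out in turn, the log2FC lay between 3.84 and 4.13. The gene (ENSMUSG00000028871) lies on the plus strand of chromosome 4 between 124986430 and 125009099 (GRCm38, GENCODE M21), where Gm12930 overlaps it on the opposite strand, and the strand setting of the counting is not given in the sources used here. No CTCF loop had an anchor within 10 kb of it, and Epha10, an ephrin receptor gene 106 kb away, was the single gene called higher among the 18 other tested genes within 500 kb (log2FC 0.67).

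The bases before the start of Rspo1 are shown because this gene carries the largest change of the list. They are from RefSeq (GRCm38.p6), chr4:124986180-124986429, plus strand, and the 22 CG dinucleotides are in capitals.
Rspo1: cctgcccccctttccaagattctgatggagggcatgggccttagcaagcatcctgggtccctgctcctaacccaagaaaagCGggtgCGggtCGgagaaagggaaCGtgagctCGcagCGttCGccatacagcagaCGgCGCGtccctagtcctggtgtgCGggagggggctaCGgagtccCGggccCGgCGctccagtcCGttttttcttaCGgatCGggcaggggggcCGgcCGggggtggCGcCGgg
The dinucleotides lie toward the start of the gene, and the part of the window farthest from it holds none.

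The order of the 4 R-spondins by level per length changed between the genotypes. In TPM, which are counts divided by exon length and scaled to the library total, controls had Rspo2 at 20.2 ± 1.09 (SD, n = 3), Rspo3 at 14.2 ± 0.918, Rspo1 at 1.62 ± 0.365 and Rspo4 at 0.0592 ± 0.0513, and the ranges of these 4 did not overlap. In Kdm1a-ifKOs, Rspo1 came first at 25.2 ± 3.69 TPM, above Rspo3 at 16.5 ± 2.07 and Rspo2 at 14.2 ± 4.06, and the last 2 overlapped. Rspo1 thus made up 4.48% ± 0.701 of the summed R-spondin TPM in controls and 44.8% ± 7.81 in Kdm1a-ifKOs. The summed level of the 4 genes was 36.0 ± 2.39 TPM in controls and 56.4 ± 3.21 TPM in Kdm1a-ifKOs.

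The other R-spondins were not called. Rspo2 was at 24.6, 27.5 and 25.8 CPM in controls and at 19.1, 22.7 and 12.7 CPM in Kdm1a-ifKOs. Its groups did not overlap, with a log2FC of -0.51 ± 0.195, but it was not called (adjusted p = 0.171). Without Kdm1a-ifKO 2 the log2FC of Rspo2 was -0.71 with an adjusted p of 0.0271, and DESeq2 gave 0.0169 with all libraries. Rspo3 (log2FC 0.21, adjusted p = 0.261) overlapped between the groups. Rspo4 was too low to be tested, with 0, 1 and 1 counts in controls and 6, 3 and 9 counts in Kdm1a-ifKOs. The ratio of its summed counts, scaled by library size, was 8.72, with an exact binomial 95% interval from 2.09 to 77.5 that covers counting error only, and Rspo4os overlaps it on the opposite strand. The log2FC of Rspo4 was 2.91 (adjusted p = 0.0525) with a filter of at least 10 counts over the 6 libraries. With no filter it was 2.92 (adjusted p = 0.0246), and DESeq2 gave 3.12 without an adjusted p. Rspo4 passes the filter of 10 counts only through its Kdm1a-ifKO counts, so these values are a description only. By its counts, Rspo4 was higher in every Kdm1a-ifKO than in every control, at a far lower level than Rspo1.

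Among the Lgr receptors that bind R-spondins, Lgr6 changed most. It was at 4.5, 5.67 and 5.27 CPM in controls and at 17.9, 15.6 and 16.5 CPM in Kdm1a-ifKOs, with no overlap and little spread within either group. The log2FC was 1.70 ± 0.115 (adjusted p = 8.13e-07) and lay between 1.61 and 1.77 without single libraries. Lgr4, the most abundant Lgr gene, was at 37.4, 35.5 and 39.5 CPM in controls and at 40.8, 41.8 and 38.6 CPM in Kdm1a-ifKOs, which overlapped (log2FC 0.11, adjusted p = 0.337). Lgr5, known as a stem cell marker of the intestine, was low and was not called (log2FC 0.56, adjusted p = 0.144). Per length, the order Lgr4, Lgr6, Lgr5 was the same in both genotypes, with 25.3 ± 1.31, 2.98 ± 0.338 and 0.607 ± 0.122 TPM in controls and 27.4 ± 1.25, 9.72 ± 0.641 and 0.903 ± 0.13 TPM in Kdm1a-ifKOs.

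**Figure D2:**
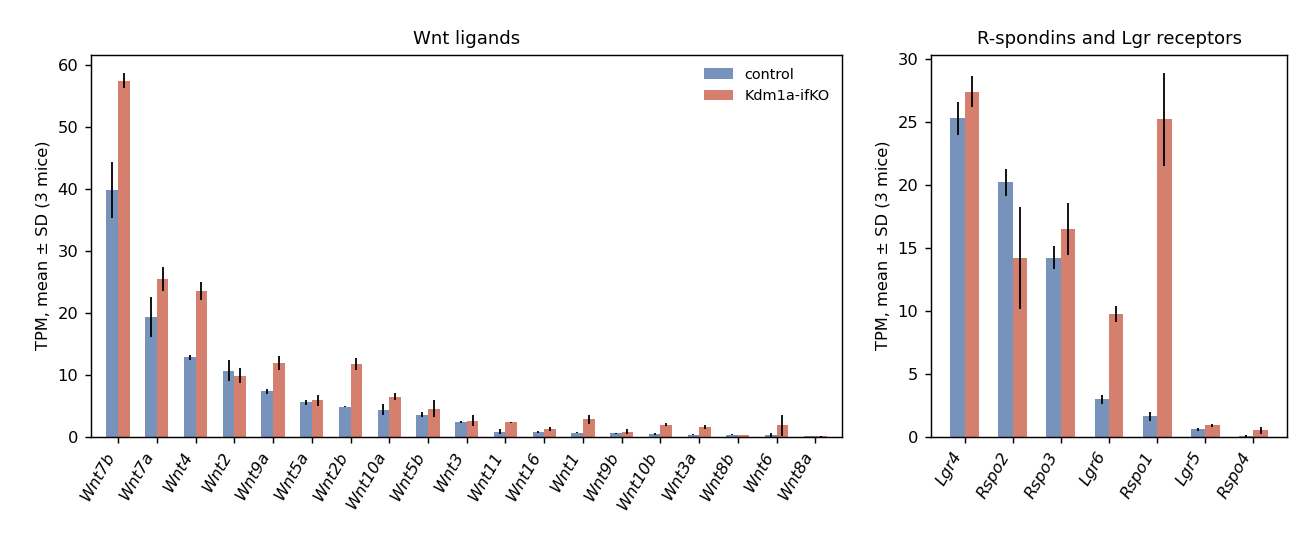
Bars give the mean TPM of 3 mice per genotype with SD, in the order of the control level, for the 19 ligands (left) and the 7 R-spondins and Lgr receptors (right). Wnt7b leads the ligands in both genotypes (39.8 and 57.5 TPM), while Rspo1 goes from 1.62 to 25.2 TPM.

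Of the 19 Wnt ligand genes, 16 were tested and 8 of them were called higher in Kdm1a-ifKOs, beside 6.04% of all tested genes. The 8 fell into a low group, Wnt1, Wnt3a, Wnt10b and Wnt11, each with a mean under 1 CPM in controls, and a group with clear expression in controls, Wnt2b, Wnt4, Wnt7b and Wnt9a. The median log2FC of the tested ligands was 0.605. The lowest log2FC of a tested ligand was -0.12, for Wnt2 (adjusted p = 0.692).

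Wnt1 and Wnt10b are neighbours on chromosome 15 that both act in the canonical branch, Wnt1 being known for the patterning of the midbrain. Wnt1 had 9, 6 and 8 counts in controls and 35, 39 and 24 counts in Kdm1a-ifKOs. Wnt10b had 8, 6 and 10 counts in controls and 27, 36 and 36 counts in Kdm1a-ifKOs. Neither gene overlapped between the groups. The log2FC was 2.03 ± 0.323 for Wnt1 (adjusted p = 1.51e-03) and 1.98 ± 0.308 for Wnt10b (adjusted p = 1.25e-03). The rates of both remained low in Kdm1a-ifKOs, at 1.67 ± 0.39 and 1.69 ± 0.26 CPM.

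Wnt1 (chromosome 15, 98789857 to 98793837, plus strand) and Wnt10b (98770712 to 98778150, minus strand) are transcribed away from each other, with 11.7 kb between their starts and no other gene in between. Of the 28 other tested genes within 500 kb of Wnt1, 7 were called higher, Wnt10b included. The neuronal intermediate filament gene Prph, 265 kb away, went from 1.28 to 37.9 CPM (log2FC 4.87). C1ql4, which encodes a secreted C1q-like protein and lies 298 kb away, went from 0.0353 ± 0.0306 to 5.65 ± 0.67 CPM and was nearly absent from the control libraries. Adcy6, Cacnb3, Spats2 and Kcnh3 had a log2FC between 0.22 and 0.40.

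Their upstream bases are shown because these genes share an intergenic region and changed by nearly the same factor. Both are from RefSeq (GRCm38.p6), with CG dinucleotides in capitals, for Wnt1 at chr15:98789607-98789856 on the plus strand (23 dinucleotides) and for Wnt10b at chr15:98778151-98778400 on the minus strand (14 dinucleotides).
Wnt1: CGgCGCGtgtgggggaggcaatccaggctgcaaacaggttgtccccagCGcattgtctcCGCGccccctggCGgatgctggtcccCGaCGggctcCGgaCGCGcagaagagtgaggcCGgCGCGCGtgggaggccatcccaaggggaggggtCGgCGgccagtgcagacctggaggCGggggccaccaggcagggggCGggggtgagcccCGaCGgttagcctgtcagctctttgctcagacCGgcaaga
Wnt10b: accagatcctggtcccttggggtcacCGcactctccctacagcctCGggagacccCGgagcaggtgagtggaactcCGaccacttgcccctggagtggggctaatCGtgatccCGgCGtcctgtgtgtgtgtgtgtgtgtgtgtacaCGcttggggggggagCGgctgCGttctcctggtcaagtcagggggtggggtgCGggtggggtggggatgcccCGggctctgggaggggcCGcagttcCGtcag

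Wnt3a and Wnt9a form a second pair of this kind on chromosome 11. Wnt3a, the ligand of the cortical hem, had 4, 5 and 5 counts in controls and 25, 16 and 22 counts in Kdm1a-ifKOs. Its log2FC was 2.1 ± 0.379 (adjusted p = 3.66e-03), and the highest control stayed below the lowest Kdm1a-ifKO. Wnt9a was at 5.8, 6.2 and 6.45 CPM in controls and at 10.1, 10.7 and 8.99 CPM in Kdm1a-ifKOs, also without overlap, with a smaller log2FC of 0.69 ± 0.119 (adjusted p = 2.61e-03). Wnt3a (59248033 to 59290752, minus strand) and Wnt9a (59306928 to 59333552, plus strand) are likewise transcribed away from each other, with 16.2 kb between their starts.

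The upstream bases of this pair are shown for comparison with those of Wnt1 and Wnt10b. They are from RefSeq (GRCm38.p6), with CG dinucleotides in capitals, for Wnt3a at chr11:59290752-59291001 on the minus strand (41 dinucleotides) and for Wnt9a at chr11:59306680-59306929 on the plus strand (48 dinucleotides).
Wnt3a: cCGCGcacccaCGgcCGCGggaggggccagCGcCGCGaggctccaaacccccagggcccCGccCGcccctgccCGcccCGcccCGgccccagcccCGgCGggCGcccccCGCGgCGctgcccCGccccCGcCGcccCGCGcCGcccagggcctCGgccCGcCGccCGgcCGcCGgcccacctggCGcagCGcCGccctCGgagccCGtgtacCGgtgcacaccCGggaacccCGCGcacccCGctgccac
Wnt9a: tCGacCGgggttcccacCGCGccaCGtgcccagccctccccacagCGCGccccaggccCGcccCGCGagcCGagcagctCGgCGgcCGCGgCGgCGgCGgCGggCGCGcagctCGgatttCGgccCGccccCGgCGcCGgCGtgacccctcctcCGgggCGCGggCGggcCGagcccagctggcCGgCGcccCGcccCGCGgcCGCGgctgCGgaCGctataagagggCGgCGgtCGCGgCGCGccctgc
Across these pairs the number of CG dinucleotides ranged from 14 before Wnt10b to 48 before Wnt9a.

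The list holds 2 further pairs of neighbouring ligands, whose members were not called or, for Wnt6, not tested. Wnt9b and Wnt3, 24.3 kb apart on chromosome 11 and in the same arrangement, had log2FC values of 0.47 (adjusted p = 0.458) and 0.15 (adjusted p = 0.773). Wnt10a, whose start lies 19.6 kb from that of Wnt6 on chromosome 1 and on the same strand, was at 3.19, 2.15 and 2.85 CPM in controls and at 4.32, 4.01 and 3.65 CPM in Kdm1a-ifKOs. Its groups did not overlap, but the log2FC of 0.55 ± 0.184 was not called (adjusted p = 0.0849).

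**Figure D3:**
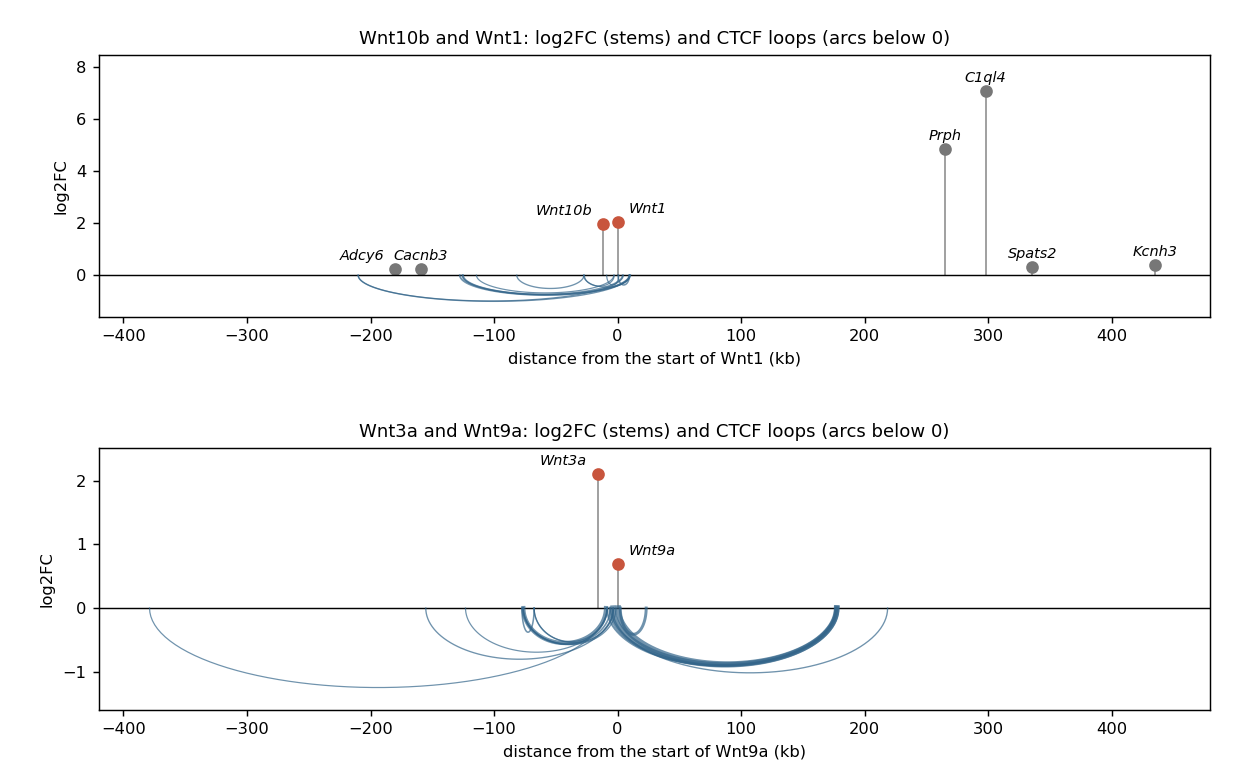
For the pairs Wnt10b and Wnt1 (top) and Wnt3a and Wnt9a (bottom), stems give the log2FC against the distance in kb from the start of Wnt1 or Wnt9a, with the pair in red. The top panel also shows, in grey, the other genes called higher within 500 kb, and the bottom panel shows the pair alone. Arcs below 0 are CTCF loops of sorted neuronal nuclei from mice other than the RNA-seq controls. They have an anchor within 10 kb of either gene and are drawn thicker with more paired-end tags. None of those in the top panel ends near Prph or C1ql4. The height of C1ql4 is a fitted value that depends on the very few control counts.

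Wnt11, a ligand known mainly for beta-catenin-independent signalling, was at 1.31, 0.473 and 0.86 CPM in controls and at 2.21, 2.49 and 2.46 CPM in Kdm1a-ifKOs. The controls varied more than the mutants and stayed below them. The log2FC was 1.43 ± 0.293 (adjusted p = 8.45e-03), between 1.13 and 1.84 without single libraries, and Gm8398 overlaps the gene on the opposite strand. Wnt2b, a canonical ligand, was at 5.23, 5.09 and 5.16 CPM in controls and at 13.5, 11.9 and 11.6 CPM in Kdm1a-ifKOs, with a log2FC of 1.26 ± 0.115 (adjusted p = 1.11e-05). Gm43846 overlaps Wnt2b on the same strand.

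Wnt4, which takes part in kidney and female gonad development, was at 14, 13.3 and 13.2 CPM in controls and at 24.2, 26.2 and 23.6 CPM in Kdm1a-ifKOs. The groups were far apart relative to their spread (log2FC 0.87 ± 0.0797, adjusted p = 1.11e-05). Wnt7b, the ligand with the highest level in both genotypes, was at 52.6, 51.8 and 42.8 CPM in controls and at 71.7, 68.2 and 71.7 CPM in Kdm1a-ifKOs. The log2FC of Wnt7b was 0.52 ± 0.0749 (adjusted p = 6.97e-04). AU022754 overlaps Wnt7b on the opposite strand and was also called higher (log2FC 0.56), so that reads of the pair cannot be told apart where they overlap if the counting ignored strand.

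Wnt7a, which like Wnt7b signals to brain endothelium, lay just outside the threshold. It was at 14.6, 18.4 and 13.4 CPM in controls and at 19.6, 19 and 22.0 CPM in Kdm1a-ifKOs, with a log2FC of 0.38 ± 0.113 (adjusted p = 0.0539). The adjusted p of Wnt7a was 0.00952 without control 2. Wnt2, Wnt3, Wnt5a, Wnt5b, Wnt9b and Wnt16 were not called, with log2FC values from -0.12 (Wnt2) to 0.66 (Wnt16), and each overlapped between the groups. Wnt5a, the best known ligand of the beta-catenin-independent branch, was at 10.6, 10.4 and 11.9 CPM in controls and at 10.8, 13.5 and 10.3 CPM in Kdm1a-ifKOs.

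By level per length, controls expressed Wnt7b at 39.8 ± 4.52 TPM, Wnt7a at 19.4 ± 3.24, Wnt4 at 12.8 ± 0.447, Wnt2 at 10.7 ± 1.75 and Wnt9a at 7.34 ± 0.359. Of these neighbours in the order, only Wnt4 and Wnt2 overlapped in range. Below Wnt3 (2.32 ± 0.172 TPM), the 9 lowest ligands, from Wnt11 to Wnt8a, each overlapped the next in controls. In Kdm1a-ifKOs, Wnt4 (23.5 ± 1.5 TPM) overlapped Wnt7a (25.5 ± 1.9 TPM), and Wnt2b rose from 4.88 ± 0.0772 to 11.7 ± 0.965 TPM and overlapped Wnt9a and Wnt2. The summed TPM of the 19 ligands was 121, 117 and 108 in controls and 169, 178 and 171 in Kdm1a-ifKOs. Wnt7b made up 34.5% ± 2.03 of that sum in controls and 33.4% ± 1.62 in Kdm1a-ifKOs. The 5 ligands called with a log2FC over 1 made up 6.31% ± 0.669 in controls and 11.8% ± 0.775 in Kdm1a-ifKOs. These 5 were chosen by their higher level in the same libraries, so the rise of their share follows from that choice.

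**Figure D4:**
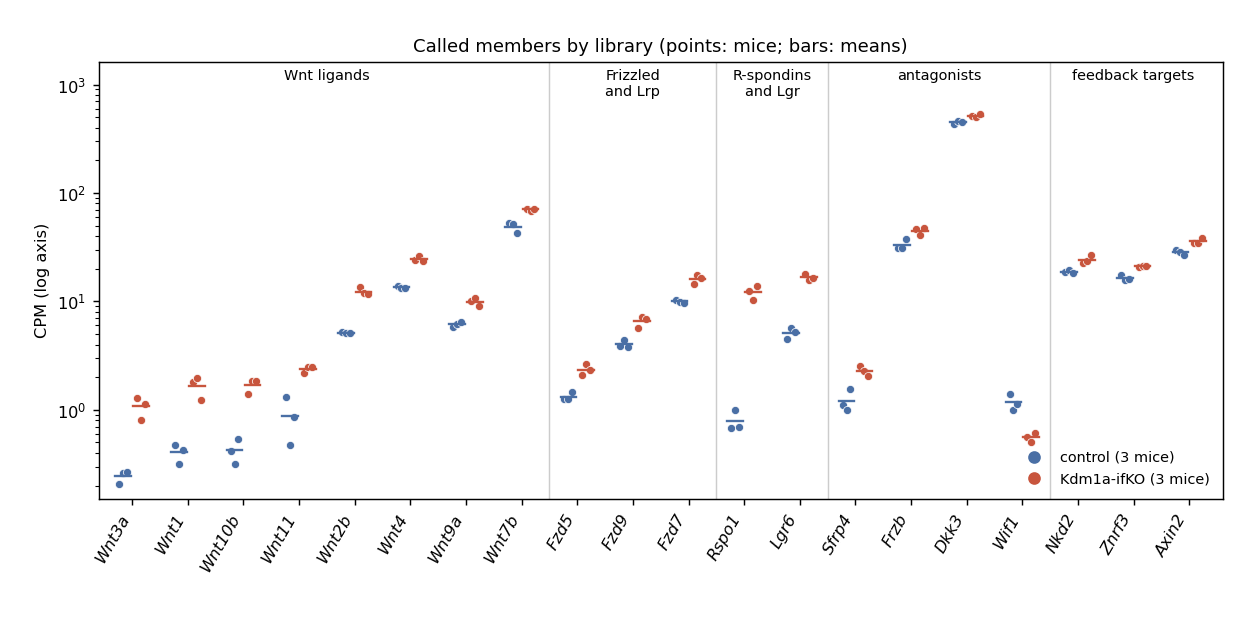
Each point is 1 mouse and each bar a group mean, in CPM on a log axis, for the 20 called members in the order of class and log2FC. Rspo1 goes from under 1 CPM in controls to at least 10.2 CPM in Kdm1a-ifKOs, and Dkk3, the most abundant member, goes from 451 to 514 CPM.

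Of the 12 receptor genes, all were tested and 3 Frizzled genes were called higher, beside 6.04% of all tested genes. The median log2FC of this class was 0.215. Fzd7, the most abundant of the 3, was at 10.4, 9.87 and 9.73 CPM in controls and at 14.6, 17.4 and 16.3 CPM in Kdm1a-ifKOs (log2FC 0.69 ± 0.0966, adjusted p = 5.46e-04). Fzd9 was at 3.92, 4.41 and 3.76 CPM in controls and at 5.66, 7.11 and 6.93 CPM in Kdm1a-ifKOs (log2FC 0.70 ± 0.15, adjusted p = 0.0107). Both kept their call without any single library. Cldn3, a tight junction gene 265 kb from the start of Fzd9, went from 0.245 to 4.25 CPM (log2FC 4.07).

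Fzd5 was at 1.26, 1.26 and 1.45 CPM in controls and at 2.11, 2.64 and 2.31 CPM in Kdm1a-ifKOs, with a log2FC of 0.83 ± 0.213 (adjusted p = 0.0287). The groups did not overlap, but the call was lost in 5 of the 6 fits without 1 library, in all but that without control 3, with adjusted p-values up to 0.087, and DESeq2 gave 0.127. Lrp6, the receptor gene with the highest level per length in controls (17.0 ± 2.63 TPM), was at 52.9, 53.3 and 69.1 CPM in controls and at 53.2, 55.4 and 52.7 CPM in Kdm1a-ifKOs. Control 3 stood above the other 5 libraries for Lrp6, and also for Fzd3 (5.91 CPM, the others at most 3.49) and Fzd4 (21.6 CPM, the others at most 18.3). None of these 3 was called (log2FC -0.12, 0.02 and -0.20), and without control 3 the log2FC of Lrp6 was 0.02. Fzd3 was called higher without control 3 (log2FC 0.75, adjusted p = 0.0472), and without both control 3 and Kdm1a-ifKO 2, an alternative chosen after seeing the data, its log2FC was 0.75 with an adjusted p of 0.0586. Lrp5 was at 14.2, 13.0 and 12.0 CPM in controls and at 15.7, 15.0 and 18.6 CPM in Kdm1a-ifKOs, which did not overlap but missed the threshold (log2FC 0.33 ± 0.104, adjusted p = 0.0676).

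The order of the Frizzled genes was less distinct than that of the ligands. In controls, Fzd4, Fzd1, Fzd6, Fzd7, Fzd2 and Fzd9 lay between 10.1 and 6.99 TPM on average, and each overlapped the next. In Kdm1a-ifKOs, Fzd7 came first at 14.2 ± 1.31 TPM, above Fzd1 at 11.5 ± 0.927 and Fzd9 at 11.4 ± 1.43, and its range did not overlap that of Fzd1. Fzd1, Fzd2, Fzd6 and Fzd8 were not called, with log2FC values between -0.00 (Fzd6) and 0.27 (Fzd1).

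Wnt6 and Fzd10 had their highest value in Kdm1a-ifKO 2. Wnt6 had 1, 1 and 7 counts in controls and 10, 41 and 9 counts in Kdm1a-ifKOs, and it was below the minimum for testing. With a filter of at least 10 counts over the 6 libraries its log2FC was 2.64 with an adjusted p of 0.142, with no filter the adjusted p was 6.37e-06, and DESeq2 gave 0.0229. Fzd10 was at 0.418, 0.263 and 0.43 CPM in controls and at 0.771, 1.93 and 0.565 CPM in Kdm1a-ifKOs (log2FC 1.54 ± 0.505, adjusted p = 0.0828). Without Kdm1a-ifKO 2 the log2FC of Fzd10 was 0.84 with an adjusted p of 0.295, and without Kdm1a-ifKO 3 it was 1.85 with an adjusted p of 0.0357.

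The same library stood apart for genes of the meninges and fibroblasts. The 9 markers of these cells (Dcn, Lum, Col1a1, Col1a2, Col3a1, Slc6a13, Igf2, Aldh1a2 and Foxc1) were all highest in Kdm1a-ifKO 2, where they summed to 242 CPM. The sum lay between 116 and 132 CPM in controls and was 111 and 82.3 CPM in the other Kdm1a-ifKOs. None of the 9 was at 0 and none was called by edgeR, 2 had an unadjusted p under 0.05, and DESeq2 called 1. Rspo1 was at 10.2 CPM in Kdm1a-ifKO 2 and at 12.6 and 13.9 CPM in the other mutants. The part of these cells in the values of Wnt6, Fzd10 and Rspo1 was not tested.

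**Figure D5:**
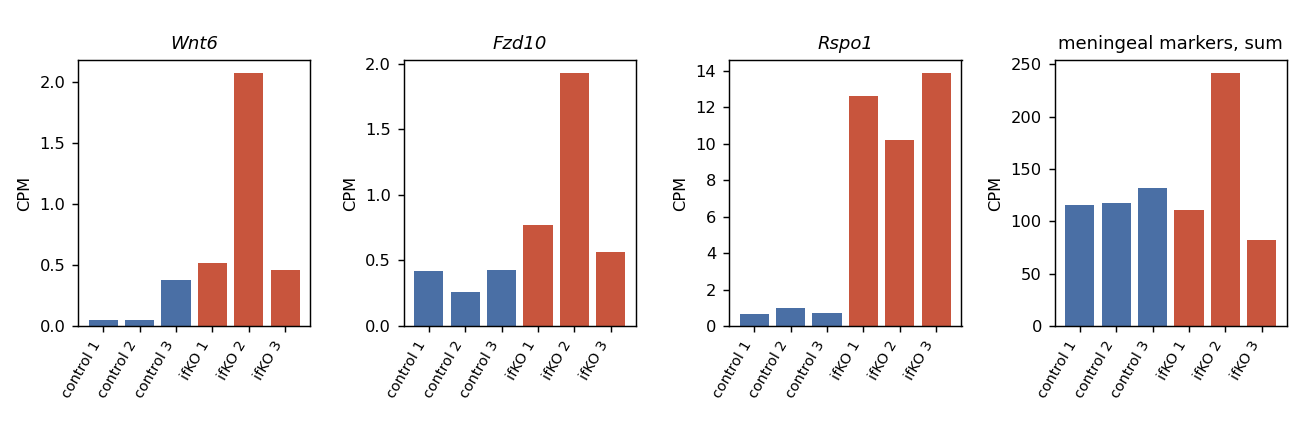
Bars give the CPM in each of the 6 libraries for Wnt6, Fzd10 and Rspo1 and for the sum of 9 meningeal and fibroblast markers. Kdm1a-ifKO 2 is highest for Wnt6 (2.08), Fzd10 (1.93) and the markers (242), and lowest of the 3 mutants for Rspo1 (10.2).

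Markers of other cell types were compared over the same libraries. Of 8 astrocyte markers, 4 were called higher (Slc1a3, S100b, Aldoc and Sox9, log2FC between 0.20 and 0.38), beside 6.04% of all tested genes. The 8 summed to 2580 to 2730 CPM in controls and 3000 to 3260 CPM in Kdm1a-ifKOs. Of 6 microglia markers, 3 were called higher (Cx3cr1, Tmem119 and Csf1r, log2FC between 0.27 and 0.42), beside the same 6.04%. The 6 summed to 262 to 289 CPM in controls and 303 to 385 CPM in Kdm1a-ifKOs. Of 8 excitatory neuron markers and 8 interneuron markers, 0 were called higher. In each of these lists 2 were called lower, beside 2.82% of all tested genes. Of the tested choroid plexus markers Kl was called higher (log2FC 1.28), while Ttr, the defining transcript of that tissue, was at 32.0, 10.7 and 7.04 CPM in controls and at 3.29, 6.24 and 8.16 CPM in Kdm1a-ifKOs. The markers of granule cells, CA1 and CA2 or CA3 were present in every group, with summed levels of 469 to 516 and 505 to 585 CPM for the 7 granule cell genes. No marker was at 0 in all libraries. The part of astrocytes and microglia in the differences of the members was not tested.

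Of the 9 secreted antagonists, 7 were tested. Dkk3, Frzb and Sfrp4 were called higher, beside 6.04% of all tested genes, and Wif1 was called lower, beside 2.82%. Dkk3, a Dickkopf relative that does not act on Lrp coreceptors like Dkk1, is the most abundant member by far. It was at 437, 460 and 455 CPM in controls and at 511, 499 and 533 CPM in Kdm1a-ifKOs, a small shift without overlap (log2FC 0.19 ± 0.049, adjusted p = 0.0287). The call was lost without control 1, control 2, Kdm1a-ifKO 1 or Kdm1a-ifKO 3, with adjusted p-values up to 0.177. Frzb, which binds Wnts, was at 31.3, 31.0 and 37.6 CPM in controls and at 46.8, 40.7 and 47.6 CPM in Kdm1a-ifKOs (log2FC 0.44 ± 0.0873, adjusted p = 8.45e-03) and remained called without any single library.

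Sfrp4 was at 1.1, 0.998 and 1.56 CPM in controls and at 2.52, 2.28 and 2.05 CPM in Kdm1a-ifKOs (log2FC 0.91 ± 0.236, adjusted p = 0.0307). Wif1, the Wnt inhibitory factor, went the other way, at 1.41, 0.998 and 1.13 CPM in controls and at 0.566, 0.508 and 0.616 CPM in Kdm1a-ifKOs. Every Kdm1a-ifKO was below every control for Wif1, with 27, 19 and 21 counts against 11, 10 and 12 (log2FC -1.06 ± 0.301, adjusted p = 0.045). These calls were close to the threshold. That of Sfrp4 was lost in every fit without 1 library but the one without control 3 (adjusted p up to 0.106), that of Wif1 in all 6 (0.0627 to 0.136), and DESeq2 gave 0.103 and 0.206. Sfrp1 (log2FC 0.47, adjusted p = 0.129), Sfrp2 (0.10, 0.873) and Dkk2 (-0.21, 0.733) were not called. Sfrp5, with 7 counts over the controls and 6 over the Kdm1a-ifKOs, and Dkk1, with 1 and 2, were too low to be tested. Wnt8a had 3 counts over the controls and 2 over the Kdm1a-ifKOs, and Wnt8b had 17 and 15.

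The 6 feedback targets are genes that Tcf and Lef factors can activate, and most of their products restrain the pathway. Whether their values here follow the activity of the canonical branch was not tested. Axin2, a scaffold of the complex that degrades beta-catenin, was at 30.0, 28.6 and 26.9 CPM in controls and at 34.8, 34.9 and 38.3 CPM in Kdm1a-ifKOs. Nkd2, which binds Dishevelled, was at 18.6, 19.5 and 18.4 CPM in controls and at 22.7, 23.6 and 26.6 CPM in Kdm1a-ifKOs. Znrf3, the ubiquitin ligase that R-spondins remove, was at 17.6, 15.9 and 16.2 CPM in controls and at 20.9, 21.4 and 21.1 CPM in Kdm1a-ifKOs. These 3 of the 6 were called higher, beside 6.04% of all tested genes, and none of them overlapped between the groups.

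The log2FC was 0.34 ± 0.0703 for Axin2 (adjusted p = 9.66e-03), 0.37 ± 0.0809 for Nkd2 (adjusted p = 0.0131) and 0.35 ± 0.0776 for Znrf3 (adjusted p = 0.0132). Without Kdm1a-ifKO 3 the adjusted p was 0.0595 for Axin2 and 0.07 for Nkd2, and without control 2 it was 0.0611 for Znrf3. Gm11670 overlaps Axin2 and Gm8062 overlaps Nkd2, both on the opposite strand. Nkd1 (log2FC 0.22, adjusted p = 0.273), Rnf43 (0.05, 0.91) and Lef1 (-0.06, 0.904) were not called and overlapped between the groups. Lef1, which is highly expressed in thalamic neurons as well as being a target, was at 4.34, 5.04 and 4.3 CPM in controls. In Kdm1a-ifKOs it was at 2.88, 6.14 and 4.06 CPM. Markers of thalamus and habenula summed to 219 to 237 CPM in controls and 215 to 236 CPM in Kdm1a-ifKOs. The part of such cells in the values of Lef1 was not tested.

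The members were also grouped by their mean level in controls. Of the 10 tested members with under 1 CPM on average in controls, 5 were called higher and the median log2FC was 1.49, against 7.49% called higher and a median of 0.162 over the 1603 tested genes of that range. Of the 12 members from 1 to 5 CPM, 3 were called higher with a median of 0.399, against 5.23% and 0.0242 over 3324 genes. Of the 18 members from 5 to 20 CPM, 7 were called higher with a median of 0.302, against 7.85% and 0.0178 over 3743 genes. Of the 7 members above 20 CPM, 4 were called higher with a median of 0.19, against 5.24% and -0.0227 over 8129 genes. The filter on low counts can keep a low gene through the group in which it is high, so these counts and medians are a description only.

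A second list held 70 other genes of the pathway, from Wnt secretion to nuclear effectors, and was drawn up with results of these data known. Of these, 66 were tested, 10 were called higher (15.2%), beside 6.04% of all tested genes, and 2 were called lower, beside 2.82%, a share near that of all genes. Their median log2FC was 0.08, against -0.00342 over all tested genes. The highest log2FC values of this list were those of Notum and Kremen2. Notum, which inactivates Wnts by removing their lipid, went from 2.43 ± 0.444 to 17.6 ± 0.521 CPM (log2FC 2.85 ± 0.132, adjusted p = 1.76e-08), and Notumos and Myadml2os overlap it on the opposite strand. Kremen2, a receptor for Dkk1 that removes Lrp6 from the membrane, went from 0.653 ± 0.142 to 3.43 ± 0.236 CPM (log2FC 2.38 ± 0.232, adjusted p = 2.05e-05), and 9530082P21Rik overlaps it on the opposite strand. Apcdd1, an inhibitor at the membrane, went from 26.4 ± 0.79 to 35.2 ± 2.0 CPM (log2FC 0.42).

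Among 11 alternative receptors and coreceptors, 5 were called higher, beside 6.04% of all tested genes, and DESeq2 called 4 of the 11. The 5 were Kremen2, the pseudokinase Ptk7 (log2FC 0.68), the glypican Gpc3 (0.63), Adgra2 (0.32), which brain endothelium uses to sense Wnt7 ligands, and Lrp4 (0.31). In the other classes, Celsr1 of the planar polarity pathway (0.68), the cell cycle target Ccnd1 (0.52) and Dact3, a regulator of Dishevelled (0.22), were called higher. Ccnd1 was the 1 called of the 6 tested genes in a class of other targets, beside 6.04% of all tested genes. Those called lower were Csnk1a1, the casein kinase that primes beta-catenin for degradation (from 370 ± 20.9 to 269 ± 10.7 CPM, log2FC -0.46 ± 0.0553, adjusted p = 1.49e-04), and Daam1, which links Dishevelled to actin (log2FC -0.23, adjusted p = 0.0161). Of the 11 nuclear effectors, among them Tcf7l1, Tcf7l2, Bcl9 and the Tle corepressors, none was called by edgeR or by DESeq2 and 1 had an unadjusted p under 0.05. Porcn and Wls, which are needed to acylate and export every Wnt, had log2FC values of 0.02 and 0.06, and Ctnnb1, the gene of beta-catenin, 0.13.

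CTCF ChIA-PET joins pairs of sites bound by CTCF that lie close in the nucleus. It was available from 1 library of sorted Camk2a+ nuclei of the hippocampus and is described without a test. The nuclei did not come from the RNA-seq controls. They came from a reporter strain with Camk2a-creERT2 and a Sun1-GFP nuclear tag, at 12 weeks of age and 1 month after tamoxifen. It held 27786 loops, each with at least 3 paired-end tags (PETs). An anchor lay within 10 kb of the body of 31 of the 53 members (58.5%), and of 56.9% of all tested genes. Of the 19 members called higher, 12 had such an anchor (63.2%), against 71.6% of all genes called higher. The classes differed, with an anchor near 15 of 19 ligands and 3 of 12 receptors. Rspo1, Fzd5, Fzd7, Fzd9, Dkk3, Frzb and Axin2 had no anchor nearby, and Wnt2b had 1 loop with 3 PETs.

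The strongest loop near a member had 256 PETs over 18.7 kb. Both its anchors lay within 10 kb of Wnt10a, and the first also lay within 10 kb of Wnt6. Loops with 247 PETs at Wnt7a, 202 PETs at Wnt4 and 162 PETs at Lgr6 followed, and that of Lgr6 had both anchors within 10 kb of the gene over a span of 119 kb. The loop with 256 PETs lies at chr1:74782271-74799909 and chr1:74799799-74819686, so that its anchors overlap at their inner ends. In all, 8 loops joined a member to another gene called higher. Of these, 3 joined Wnt1 to Wnt10b and 2 joined Wnt3a to Wnt9a, with 3 or 4 PETs each. The genes of these pairs lie close, so that an anchor can be near both. The loops of 24.1, 9.8 and 59.1 kb had both anchors within 10 kb of Wnt10b, Wnt1 and Wnt3a respectively. A further 2 joined Wnt1 to Adcy6, with 3 and 4 PETs, and 1 with 9 PETs joined Wnt4 to C1qb over 414 kb. The anchor at C1qb also lay near C1qc and C1qa, which were not called higher. Loops to genes called lower were found at Wnt1 and Wif1. The anchors of both Adcy6 loops also lay near Ccnt1, and Wif1, the member called lower, was joined to Lemd3 by 1 loop with 3 PETs and to Tbc1d30 by 2 loops with 11 and 4 PETs. Of the 8 loops to genes called higher, 1 had at least 5 PETs.

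The number of CG dinucleotides in the promoters differed between the classes of members. RefSeq windows from 250 bases before to 50 bases after the start (GRCm38.p6) were given for 36 of the 53 members, and the window with the most CG dinucleotides was taken for each gene. The median was 26 for the 36 members and 21 for all 11984 tested genes with a window. It was 31 for the 15 members called higher that had a window, 22 for the 15 members tested and not called, and 21 for the 770 of all genes called higher that had a window. The ligands had a median of 31, the receptors of 35, the feedback targets of 21 and the antagonists of 17.5. The lowest count among the members called higher was 18, that of Wnt10b, and the highest was 58, that of Wnt9a.

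The core motif of Tcf and Lef factors was taken as CTTTGAT or CTTTGAA on either strand, in any RefSeq window of a gene. It was found for 3 of the 36 members (8.33%) and for 7.14% of all tested genes with a window. That of Wnt5b lay outside its window with the most CG dinucleotides. The 3 were Wnt11, Wnt5b and Dkk1, and the windows of Axin2, Nkd2 and Lef1 did not hold these letters. The window of Wnt11 (chr7:98834862-98835111, plus strand, bases before the start) is shown because it is the single one among the members called higher, with the core in capitals on the minus strand, 51 bases before the start.
Wnt11: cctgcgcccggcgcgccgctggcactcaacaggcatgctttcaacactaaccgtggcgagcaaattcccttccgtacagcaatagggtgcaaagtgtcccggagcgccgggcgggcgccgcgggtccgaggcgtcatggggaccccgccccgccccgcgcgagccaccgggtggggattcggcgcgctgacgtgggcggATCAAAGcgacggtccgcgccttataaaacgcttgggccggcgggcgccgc
The match is a stretch of letters in this window and was not tested for binding.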

How the data were processed

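The authors trimmed the single-end RNA-seq reads with cutadapt, aligned them to mm10 with HISAT2 and used HTSeq to count reads by gene. The deposited table gives raw counts. The authors called CTCF ChIA-PET loops with ChIA-PIPE, and the deposited loops carry PET counts. The strand setting of the counting is not given in the sources used here.

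Symbols came from GENCODE M21. Genotypes were compared in edgeR 4.0.16 (filterByExpr, TMM, robust quasi-likelihood test, genotype as the only factor) with Benjamini-Hochberg adjustment over all tested genes, which was tested on simulated data. The p-values measure the spread between libraries of separate mice. The exact permutation test of 3 against 3 cannot go below 0.1 and was not used. Members, lists and rules were chosen with earlier results of these data known. Members were all open to naming. Values in every library were given for members with an adjusted p under 0.05 and for the member of each class with the highest control TPM, and other pathway genes, markers and genes within 500 kb of a called member or joined to one by a loop were named when called. Other genes given with values, such as Ttr, Porcn, Wls, Ctnnb1 and the library values of further members, were chosen after their values were seen. Alternatives were DESeq2 1.42.0, its size factors, upper-quartile scaling, other filters, a replicate block, single libraries left out and other loop rules. The neighbours of Wnt3a and Wnt9a are not reported here.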

Additional observations from a re-analysis of the deposited data

How the results depend on the processing

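All counts below are genes called at an adjusted p under 0.05, and the cause of a change was not tested unless fewer samples or more genes tested account for it. Of the 19 members called higher, between 14 (without Kdm1a-ifKO 3) and 19 (without control 3) kept the call without single libraries, 17 kept it with DESeq2 and 16 with a replicate block. With newly called members included, those called higher numbered from 15 to 20 without single libraries, 18 with DESeq2 and 24 with no filter on low counts. The members called with a log2FC over 1 numbered 7 in the main setting and from 7 to 10 in the alternatives. With no filter on low counts the genes called lower numbered 1090 (473 in the main setting), the members called lower 2, the receptors called higher 5 and the other pathway genes called lower 6. With a replicate block the genes called lower numbered 249, the members called lower 0 and the antagonists called 1. Libraries of equal replicate number did not deviate together (r from -0.144 to -0.0316), so the numbers were not taken to pair the mice. The other pathway genes called lower numbered 4 with DESeq2 size factors, 6 with DESeq2 and 4 with at least 10 counts over the 6 libraries. DESeq2 called 2 antagonists, and the member it called lower was Rspo2 in place of Wif1. Without control 3 and Kdm1a-ifKO 2, an alternative chosen after seeing the data, 1039 genes were called higher, and 0 members and 5 other pathway genes were called lower. Without single libraries, the genes called higher ranged from 646 (without Kdm1a-ifKO 3) to 876 and those called lower from 137 (without Kdm1a-ifKO 3) to 584, with 164 without Kdm1a-ifKO 1. The members called lower ranged from 0 to 1, the antagonists from 1 to 3, the feedback targets from 1 (without Kdm1a-ifKO 3) to 3, and the other pathway genes called lower from 1 (without Kdm1a-ifKO 1) to 5. Among the log2FC values of 22 members over all these settings, 253 kept direction and side of the threshold, 32 lost the call, and 1 turned, that of Lrp6, from -0.19 without control 2 to 0.02 without control 3. For the loops, 19 members had an anchor that overlapped the gene body (31 in the main setting), and the loops that joined a member to another gene called higher numbered 1 with at least 5 PETs, 0 with at least 10 PETs, 0 for anchors in the gene body and 1 for anchors within 10 kb of the start.

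The low ligands rest on few reads, since Wnt3a had 14 counts and Wnt1 23 counts over the 3 controls. With 3 mice per group and 1 ChIA-PET library, from reporter mice other than the RNA-seq controls, differences between genotypes in looping were not analysed here.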
